A study of Mus musculus with 12 samples.

Results

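*Cd36*, *Msr1*, *Cd163* and *Marco* encode scavenger receptors, and these 4 genes were taken by name from the 770 of the NanoString nCounter panel for neuroinflammation, which had been run on microglia sorted from the mouse CNS. The panel binds color-coded probes to RNA and counts the molecules without amplification. Each sample pooled the CNS of a male and a female mouse, labelled as C57B6 and untreated. CD11b+ cells were fixed, permeabilized, stained for ERK1/2 phosphorylated at Thr202/Thyr204 and sorted as YFP+, CD45 Intermediate and Ly6G-, YFP being driven by the *Cx3cr1* promoter. The labels give no allele. The study describes its wild-type mice as carrying CreERT2 under the *Cx3cr1* promoter, and gives tamoxifen for both ages, shortly before sampling in adult and long before it in aged mice. Aged mice, over 80 weeks old, gave 4 samples of P-ERK1/2 High microglia (High; samples 2, 5, 7 and 8) and 4 of P-ERK1/2 Low microglia (Low; samples 3, 6, 9 and 12). Adult microglia (samples 1, 4 and 10) came from mice of 12 to 20 weeks and were not separated by ERK1/2 phosphorylation. Adult sample 11, marked by the authors as excluded for poor quality, was left out unless stated. Low against adult therefore differed in age, in the time since tamoxifen and in the P-ERK1/2 gate and the part of each cannot be told apart.

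Scavenger receptors are surface proteins of macrophages that bind modified lipoproteins, lipids, microbes and debris and carry them into the cell. CD36, a class B receptor, binds oxidized LDL and long-chain fatty acids, and on microglia it also binds fibrillar amyloid together with Toll-like receptors. MSR1 and MARCO are class A receptors with a collagen-like stalk. MSR1 takes up modified LDL and apoptotic debris, and MARCO is best known on resident macrophages of the lung and spleen, where it binds bacteria. CD163 takes up complexes of hemoglobin with haptoglobin and in the CNS is typical of macrophages at the borders and around vessels.

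The *Cd36* promoter is shown because *Cd36* was the receptor called in both comparisons with Low microglia and measured above background in all 11 samples. It is the RefSeq sequence of assembly GRCm38.p6 at chr5:17835897-17836146 on the minus strand, the 250 bases before the annotated start, with a CCAAT box in capitals.
Cd36: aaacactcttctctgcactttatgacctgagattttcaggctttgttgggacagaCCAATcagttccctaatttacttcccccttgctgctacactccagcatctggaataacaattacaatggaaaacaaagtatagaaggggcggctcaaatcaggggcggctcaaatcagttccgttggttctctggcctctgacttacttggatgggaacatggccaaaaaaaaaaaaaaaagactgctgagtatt
The CCAAT box lay from -195 to -191 relative to the start, and 33.85% of 32851 promoter windows of this length held one on either strand. The ETS core GGAA occurred 6 times on either strand, and 93.45% of windows held it. The window held no match to the longer PU box GAGGAA (in 23.25% of windows), to the AP-1 element TGANTCA (6.75%) or to the DR1 element that PPAR and RXR bind (0.03%), on either strand. Of the 4 receptors, 3 had a promoter window in the RefSeq table, and that of *Msr1* is not shown. The *Cd163* window held a CCAAT box on the opposite strand from -57 to -53 and the *Marco* window the PU box from -146 to -141. The nCounter counts do not tell which start site was used.

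The deposited values are counts multiplied by 1 factor per sample that brings 13 housekeeping genes to a common level, and they are called values here. Total counts were 650965 to 1539936 in High, 123798 to 157209 in Low and 137980 to 326575 in adult samples. A gene was taken as above background where its count exceeded the mean plus 2 SD of the 8 negative control probes of that sample. Among microglia markers, *Csf1r* was above background in all 11 samples. *Tmem119* was above it in 3 of 3 adult, 1 of 4 Low and 4 of 4 High samples, and *P2ry12* in 2 of 3, 0 of 4 and 4 of 4. RNA came from sorted pools, in which fewer cells of a type and less RNA per cell cannot be told apart. Whether any samples shared mice is not stated, so p-values measure only the spread between these samples, which may be technical in part.

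A gene was called where limma gave an unadjusted p under 0.01 together with a log2 fold change over 1 in size. In Low against adult 2 of the 4 receptors were called, *Cd36* and *Msr1*, both higher, where 10.8% of the 770 genes were called, 8.05% higher and 2.73% lower. In High against Low, *Cd163* was called higher and *Cd36* lower, where 37.8% of genes were called, 28.2% higher and 9.61% lower. In High against adult, *Msr1* and *Cd163* were called higher, where 36.9% of genes were called, 29.2% higher and 7.66% lower. *Marco* was called in none of the 3 as deposited. The comparisons share samples and are given side by side, each with its own values.

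**Figure D1:**
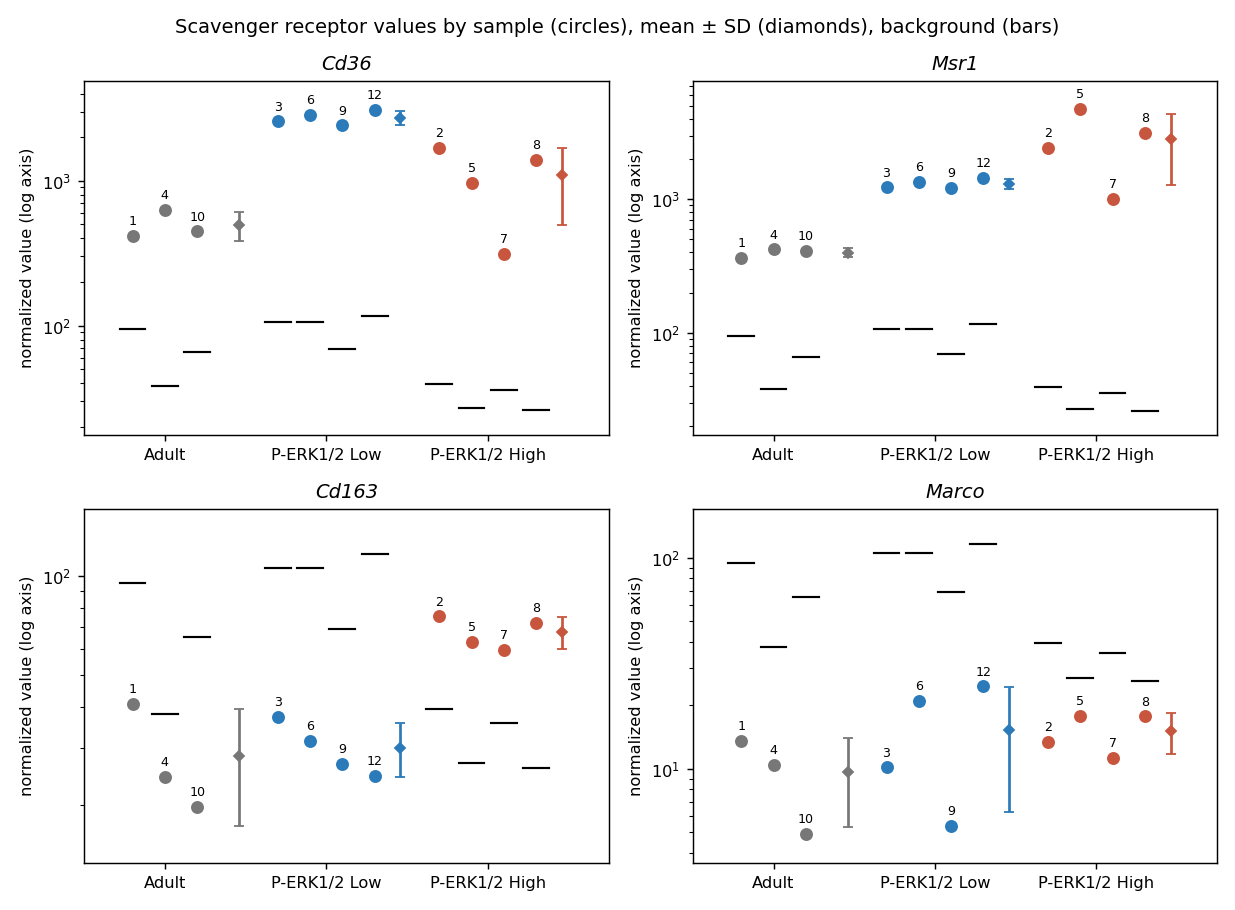
Normalized value (log axis) of each receptor in each sample, numbered as labelled, for adult, Low and High microglia. Diamonds give the group mean ± SD (n = 3, 4 and 4) and black bars the background of each sample from its negative control probes. *Cd36* peaks in Low, *Msr1* lies above background throughout, *Cd163* clears the bar only in the 4 High samples and *Marco* in none.

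*Cd36* was highest in Low microglia and lowest in adult microglia, apart from 1 High sample. The adult values of *Cd36* were 415 in sample 1, 626.5 in sample 4 and 447 in sample 10. In Low they were 2575 in sample 3, 2850.2 in sample 6, 2416 in sample 9 and 3085 in sample 12. In High they were 1679 in sample 2, 969.9 in sample 5, 314 in sample 7 and 1404 in sample 8. The Low samples lay close together and above every other kept sample, whereas High spread widely and its sample 7 fell below all 3 adult samples.

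The mean *Cd36* value rose from 496 ± 114 (SD, n = 3) in adult to 2732 ± 296 (n = 4) in Low, 5.50-fold. The log2 fold change was 2.48 with an SE of 0.19 and an adjusted p of 2e-04, and *Cd36* had the 4th largest increase of the 770 genes. All samples of Low were above all adult samples, as for 26.1% of genes. *Cd36* was called under each of 7 scalings of this comparison, at a log2 fold change of 1.62 to 2.48, and remained called with sample 11 among the adults, at 2.10.

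In High the mean *Cd36* value was 1092 ± 595 (SD, n = 4), 2.502-fold lower than in Low, with all samples of High below, as for 18.1% of genes. The log2 fold change was -1.56 with an SE of 0.44, a 95% interval of -2.51 to -0.61 and an adjusted p of 0.00967, the 10th largest decrease of the 770 genes. The call was lost without High sample 5 (log2 fold change -1.59) and without Low sample 12, with p above the threshold in both, and without sample 7 the change was -1.05 and still called. It was also lost in the plain test with unequal variances, whose unadjusted p was 0.0619. Subtracting the mean of the negative controls (-1.57) or of 22 floor genes (-1.66) ended the call too. The floor genes were chosen to mark cells outside a CD11b gate, other neural and immune cells included, though the gate may not leave out all of these. *Cd36* was called lower under 4 of 7 scalings. The 6 most stable housekeeping genes gave -0.79, the counts with no scaling 0.12 and positive control scaling 0.43, none of them called. As deposited these 6 housekeeping genes were themselves lower in High than in Low, at log2 fold changes of -1.225 to -0.516.

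The scaling moved all genes together, and the median log2 fold change of the 770 genes in High against Low was 0.26 as deposited, -0.76 with total count scaling and 2.21 with positive control scaling. As deposited, *Cd36* differed from that median by -1.82 on the log2 scale. A scaling with 1 factor per sample shifts a gene and the median nearly alike, so among the 7 only quantile normalization could move this difference much, and it gave -2.03. *Cd36* in High did not pass the test against adult (log2 fold change 0.91, SE 0.50, adjusted p = 0.153), and the groups overlapped through sample 7. Leaving out 1 sample gave 0.63 (without High sample 2) to 1.43 (without sample 7), called without sample 7 alone, and with sample 11 among the adults it was 0.54. It was also called higher with the 6 most stable housekeeping genes (1.63), with no scaling (1.74) and with positive control scaling (2.09), and with total count scaling the sign turned (-0.50).

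Among the High samples, sample 7 held the highest summed values of most marker lists. The sum of its 9 endothelial markers was 1559, against 805 to 977 in the other High samples, and that of its 3 monocyte markers 433, against 158 to 202. It was also highest for neuron (376), oligodendrocyte (349) and microglia (3544) markers and for the 22 floor genes (1290), and lowest for astrocyte (683) and border macrophage (80.9) markers. The endothelial sum was 344 to 546 in Low and 395 to 590 in adult samples. The sum of the 22 floor genes was 655 to 1290 in High, 478 to 522 in Low and 380 to 749 in adult samples. The sum of 8 T and NK cell markers was 284 to 1061 in High, 144 to 207 in Low and 130 to 264 in adult samples.

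Against the 28.2% of all genes called higher in High than in Low, the called endothelial markers were 4 of 9 (*Flt1*, *Cldn5*, *Esam* and *Emcn*) and the T and NK cell markers 2 of 8 (*Cd3e* and *Cd3g*). In the same comparison 4 of 8 microglia, 1 of 3 monocyte, 1 of 5 neutrophil, 1 of 4 astrocyte and 1 of 5 neuron markers were called higher, and 2 neuron and 1 of 5 oligodendrocyte markers lower, where 9.61% of all genes were. Of the 22 floor genes, 5 were called higher (*Kir3dl2*, *Dlx1*, *Tcl1*, *Epcam* and *Ceacam3*) and 1 lower (*Il3*). In Low against adult, where *Cd36* and *Msr1* rose, 3 of the 8 microglia markers were called lower, beside 2.73% of all genes, *Fcrls* (-2.31, the largest decrease of the 770), *Olfml3* (-1.56) and *Tmem119* (-1.03), and 0 higher. Of the other marker lists 1 oligodendrocyte gene, *Mobp*, was called lower there and 0 genes higher. In High against adult 1 of 8 microglia markers was called higher and 2 lower, beside 29.2% and 7.66% of all genes. Endothelial markers were 2 higher and 1 lower of 9, and neutrophil markers 1 higher and 1 lower of 5. Called higher there were also 2 of 8 T and NK cell, 1 of 5 neuron and 1 of 4 astrocyte markers and 4 of 22 floor genes. The part of other cells in the receptor values was not tested.

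*Msr1* had a different order, with adult lowest, Low in between and High the highest on average. The adult values of *Msr1* were 363 in sample 1, 422 in sample 4 and 413 in sample 10. In Low they were 1227, 1343, 1223 and 1452 in samples 3, 6, 9 and 12. In High they were 2443 in sample 2, 4743 in sample 5, 1012 in sample 7 and 3159.9 in sample 8. Sample 7 was again the lowest of its group and fell below all 4 Low samples, while every aged sample was above every adult sample.

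The *Msr1* mean rose 3.29-fold, from 399 ± 31.5 (SD, n = 3) in adult to 1311 ± 109 (n = 4) in Low, with a log2 fold change of 1.71, an SE of 0.14 and an adjusted p of 0.000255. This was the 14th largest increase among the 770 genes. The call did not hold with sample 11 as a 4th adult (log2 fold change 0.66), with counts not scaled (0.86) or with positive control scaling (0.90), where the median of all genes was -0.72 and -0.69. The difference of *Msr1* from the median of all genes, which a scaling with 1 factor per sample leaves nearly fixed, was 1.61 on the log2 scale as deposited and 1.46 with quantile normalization.

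In High *Msr1* averaged 2840 ± 1552 (SD, n = 4), 7.12-fold above adult, with a log2 fold change of 2.63, an SE of 0.44 and an adjusted p of 0.000797. It was called under all 7 scalings, between 1.21 and 3.80, but not with sample 11 among the adults (1.57) or in the plain test (unadjusted p = 0.0106). Against Low, the *Msr1* difference did not pass the test (log2 fold change 0.92, SE 0.39, adjusted p = 0.0679) and the groups overlapped. Leaving out 1 sample gave 0.60 (without High sample 5) to 1.34 (without sample 7), and it was called without sample 7 alone. It was called higher under 3 of the 7 scalings, at 1.69 with the 6 most stable housekeeping genes, 2.59 with no scaling and 2.90 with positive control scaling, and turned sign with total count scaling (-0.11).

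**Figure D2:**
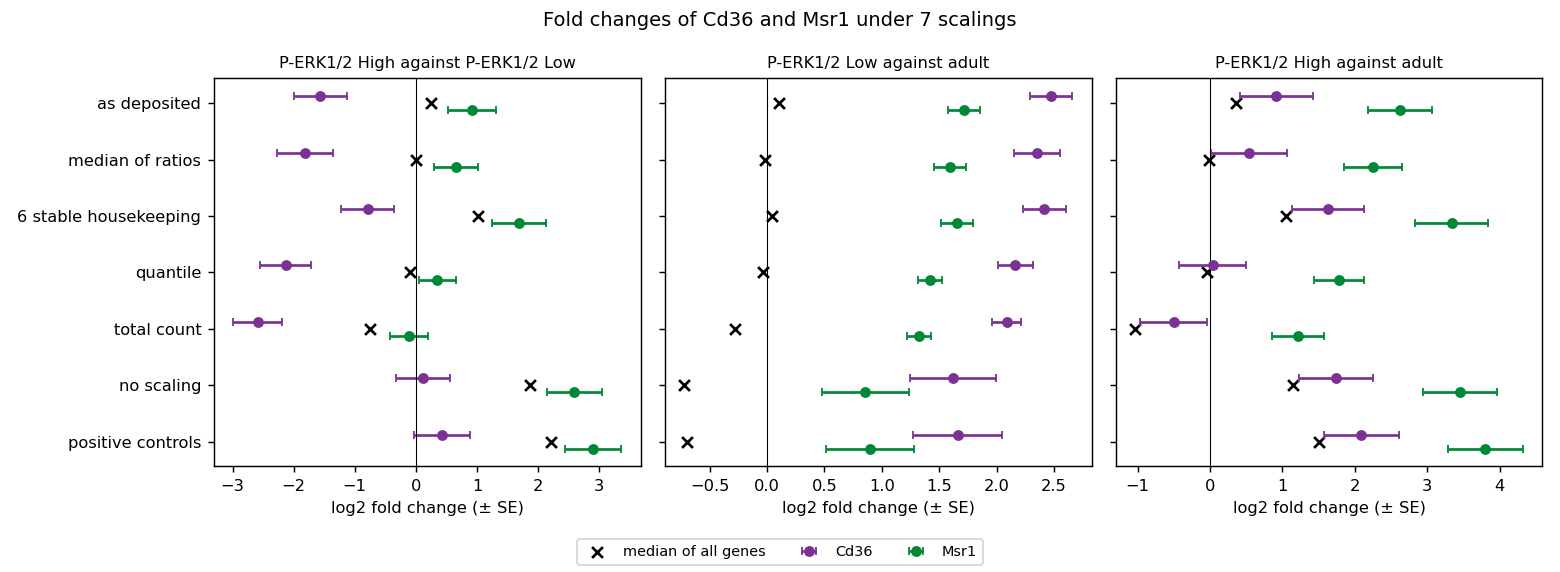
Log2 fold change (± SE from limma) of *Cd36* and *Msr1* in 3 comparisons under 7 scalings of the same counts, with the median over all 770 genes as a cross. The sign of *Cd36* in High against Low turns with no scaling and with positive controls, and the cross moves along with it. A gene's distance from the cross is nearly fixed by construction except for quantile normalization.

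The ratio of *Msr1* to *Cd36* within a sample does not depend on how the sample was scaled. Since probes differ in efficiency, the ratio was compared between samples only. On the log2 scale it was -0.19 in adult sample 1, -0.57 in sample 4 and -0.12 in sample 10. In Low it was -1.07, -1.09, -0.98 and -1.09 in samples 3, 6, 9 and 12, and in High 0.54, 2.29, 1.68 and 1.17 in samples 2, 5, 7 and 8. The 3 groups did not overlap among the kept samples, and sample 7, low in both receptors, lay within its group.

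The mean log2 ratio was 1.42 ± 0.74 (SD, n = 4) in High and -1.06 ± 0.05 (n = 4) in Low, a difference of 2.48. An exact two-sided permutation test of the 70 labelings gave p = 0.0286, the smallest they allow, and 0.0429 after Benjamini-Hochberg adjustment over 3 comparisons. Leaving out any 1 sample gave a difference of 2.19 to 2.77. Low lay below adult (-0.29 ± 0.24, SD, n = 3) by 0.76, with an exact p = 0.0286, the smallest of 35 labelings, adjusted 0.0429. High lay above adult by 1.71 with an exact p = 0.0571, adjusted 0.0571. With sample 11 (2.44) among the adults the difference was 1.03 for High (exact p = 0.286) and -1.45 for Low (exact p = 0.0286), and adult then overlapped High. Both receptors were thus higher in Low than in adult, *Cd36* by more, while between the aged groups the ratio moved toward *Msr1* in High. The pair was chosen with earlier results of these data known.

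**Figure D3:**
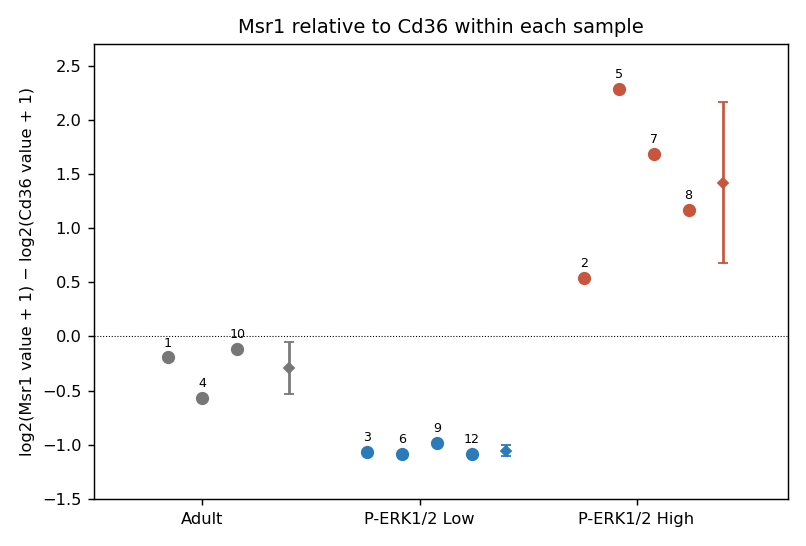
Log2 ratio of *Msr1* to *Cd36* (value + 1) in each numbered sample of the 3 groups, with diamonds for the mean ± SD (n = 3, 4 and 4). All High samples lie between 0.54 and 2.29, all adult samples between -0.57 and -0.12 and all Low samples between -1.09 and -0.98.

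*Cd163* was near the limit of detection and cleared the negative controls in High only. High samples also had the higher total counts, and 589 to 673 of the 770 genes cleared the negative controls in them, against 410 to 484 in Low and 417 to 560 in adult samples. The adult counts of *Cd163* were 18, 21 and 8 in samples 1, 4 and 10, with values of 40.8, 24.45 and 19.8. In Low the counts were 11, 9, 10 and 6 in samples 3, 6, 9 and 12, and the values 37.3, 31.55, 26.75 and 24.6. In High the counts were 62, 88, 53 and 57 in samples 2, 5, 7 and 8, and the values 75.5, 62.9, 59.5 and 72.2. All High samples were above all others, as for 31.3% of genes against Low and 35.1% against adult.

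The mean *Cd163* value was 67.5 ± 7.54 (SD, n = 4) in High and 30.0 ± 5.62 (n = 4) in Low, with a log2 fold change of 1.15, an SE of 0.22 and an adjusted p of 0.00102. Because no Low sample was above background, whose values there were 69.2 to 117, no lower bound on the fold could be set. Against adult (28.4 ± 11.1, SD, n = 3) the log2 fold change was 1.28 with an SE of 0.29 and an adjusted p of 0.00432. The background of the adult samples was 37.9 to 95.1, its upper end above every High value, and no lower bound on this fold is given either. That call was lost with a pseudocount of 20, with median-of-ratios scaling (0.91), with total count scaling (-0.10, the sign turned), after subtracting the floor genes and in the plain test (unadjusted p = 0.0428). With the counts of the 22 floor genes as background in place of the negative controls, *Cd163* was above it in 0 of 4 High samples. That background includes *Kir3dl2*, at 85.2 to 415 in High the floor gene with the highest mean there. Between High and Low *Cd163* was called under 4 of the 7 scalings, and not with median-of-ratios, quantile or total count scaling. It was also not called with a pseudocount of 20 (0.81) or after subtracting the floor genes (0.90), while subtracting the negative controls gave 3.56, from Low counts below background. Low and adult did not pass the test for *Cd163* (adjusted p = 0.738), and with both below background no fold is given.

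*Siglec1* and *Cd209e*, the border macrophage markers of the panel, summed to 80.9 to 136 in High, 81.3 to 126 in Low and 87.3 to 111 in adult samples. Neither was called in any comparison as deposited. Of all genes 37.8% were called in High against Low, 10.8% in Low against adult and 36.9% in High against adult. Each of the pair was called under 3 of the 7 scalings in High against Low and in High against adult. *Siglec1* was above background in 4 of 4 High samples and 1 of 4 Low samples, and *Cd209e* in 0 of 11. The part of such cells in the *Cd163* values was not tested.

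*Marco* was not above background in any of the 11 samples. Its counts were 6, 9 and 2 in adult samples 1, 4 and 10, then 3, 6, 2 and 6 in Low samples 3, 6, 9 and 12, and 11, 25, 10 and 14 in High samples 2, 5, 7 and 8. The mean *Marco* values of 9.68 ± 4.39 (SD, n = 3), 15.3 ± 9.04 (n = 4) and 15.1 ± 3.29 (n = 4) overlapped. Its adjusted p in limma was 0.518 for Low against adult, 0.751 for High against Low and 0.126 for High against adult. At these counts a difference in *Marco* was not detectable, and no fold is given. Between High and Low the test called it higher with no scaling and with positive control scaling, and lower after subtracting the floor genes, each time from these counts below background.

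The pattern across samples most like that of *Cd36*, by Pearson's r of the log2 values over the 11 samples, was that of *Slamf9* (r = 0.985), a receptor of the SLAM family. *Ldha* (0.953), the glycolytic lactate dehydrogenase, *Dab2* (0.946), an endocytic adaptor, *C5ar1* (0.946), the receptor of complement C5a, and *Hilpda* (0.941), a lipid droplet protein, came next. For *Msr1* the 5 genes were *Ifitm3* (0.986), an interferon-induced membrane protein, *Ccl2* (0.983), a monocyte chemokine, *Nfkbia* (0.98), the NF-kB inhibitor, *Cd72* (0.979), an inhibitory lectin-like receptor, and *C3ar1* (0.978), the receptor of complement C3a. The lists had no gene in common. All points share the scaling of their samples.

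**Figure D4:**
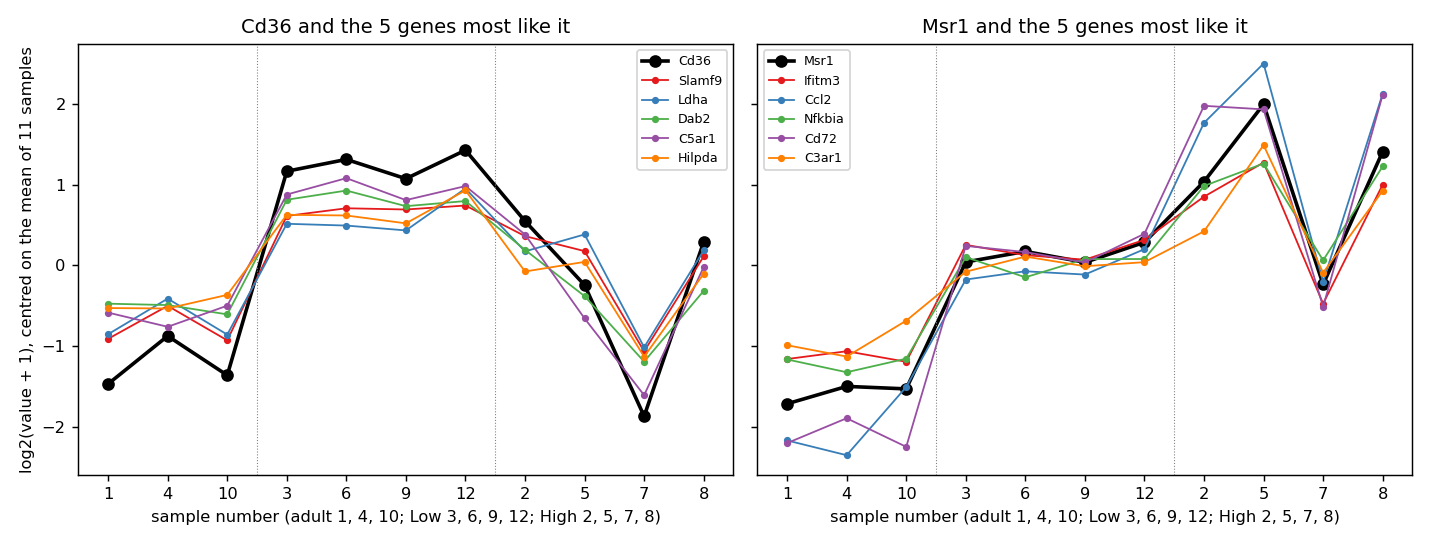
Log2(value + 1) of *Cd36* (left) and *Msr1* (right) in black with the 5 genes of highest Pearson's r, each centred on its mean over the 11 samples, which stand in the order adult, Low, High (lines only join the points of a gene). The *Cd36* set is highest in the 4 Low samples and low in sample 7, and the *Msr1* set is highest in High samples 2, 5 and 8.

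Of the other uptake receptors and adaptors on the panel (17 genes), 4 were called higher in Low than in adult, where 8.05% of all genes were, and 0 lower, with a median log2 fold change of 0.38 against 0.10 over all genes. They were *Itgax* (1.42), the integrin chain CD11c, *Fcgr3* (1.37) and *Fcgr2b* (1.06), receptors of IgG, and *Dab2* (1.34). Of the 7 scalings, *Itgax* was called under 5, *Fcgr3* and *Dab2* under 4 and *Fcgr2b* under 1, the deposited one. *Cd36* (2.48) and *Msr1* (1.71) both exceeded the highest of these values. The plain test called 2 of the 17. In High against Low, 4 of the 17 rose and 3 fell, beside 28.2% and 9.61% of all genes, the plain test called 3, and the median was -0.50 against 0.26. *Axl* (2.45), a receptor for apoptotic cells, the integrin chains *Itgav* (1.78) and *Itgam* (1.21) and the beta-glucan receptor *Clec7a* (1.21) rose. Under the 7 scalings *Axl* was called in 7, *Itgav* in 6 and *Itgam* and *Clec7a* in 4. *Fcgr2b* (-1.39), *Dab2* (-1.24) and *Fcgr1* (-1.09) fell together with *Cd36* (-1.56), and like *Cd36* these turned sign with no scaling and with positive control scaling. In High against adult, 6 of the 17 rose and 1, *Itgb5* (-1.57), fell, beside 29.2% and 7.66% of all genes, and the plain test called 5. *Axl* (2.74), *Clec7a* (2.19) and *Fcgr3* (1.89) rose most there, beside *Msr1* at 2.63, while the increases of *Cd68* and *Itgam* turned sign with total count scaling and that of *Cd68* also with quantile normalization.

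The genes that act with CD36 at the membrane or below it (8 genes) held 0 calls in Low against adult, where 10.8% of all genes were called. Of these 8, 3 had an unadjusted p under 0.05 in limma, *Tlr4* (0.63), *Tlr2* (-0.60) and *Fcer1g* (0.68). In High against Low, 0 rose and 2 fell, the Src-family kinase *Lyn* (-1.08) and the exchange factor *Vav1* (-1.25), beside 9.61% of all genes called lower, and both turned sign with no scaling and with positive control scaling. *Vav1* (-1.33) also fell in High against adult, the only one of the 8 called there. The plain test called 0 of the 8 in each of the 3 comparisons, so that the calls of *Lyn* and *Vav1* were lost in it.

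Among 7 genes of lipid handling, *Hilpda* (1.15) alone was called in Low against adult, where 10.8% of all genes were, and it was called under 4 of the 7 scalings. In High against Low 3 rose and 1 fell, beside 28.2% and 9.61% of all genes. *Fabp5* (1.31), a fatty acid carrier, and *Cyp27a1* (1.19) and *Ch25h* (2.74), which make oxysterols, rose. Of the 7 scalings, *Ch25h* was called under 7, *Fabp5* under 5 and *Cyp27a1* under 4. No Low sample was above background for *Cyp27a1* or *Ch25h*. As deposited *Ch25h* was at least 2.13-fold higher, and by the same measure the floor gene *Kir3dl2* was at least 2.375-fold higher. High values of *Cyp27a1* went down to 73.0, within the Low background of 69.2 to 117, so no lower bound is given for it. *Apoe* (-1.34), which encodes an apolipoprotein, fell beside *Cd36*, with a sign that turned with no scaling and with positive control scaling. In High against adult, *Fabp5* (2.24) and *Ch25h* (2.05, at least 3.205-fold over the adult background) rose and *Apoe* (-1.82) fell, beside 29.2% and 7.66% of all genes.

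For CD163 the panel holds 4 genes of haem and iron. As deposited 1 was called lower in High against Low, 1 in Low against adult and 2 in High against adult, and 0 were called higher. Of all genes 9.61%, 2.73% and 7.66% were called lower in these comparisons. *Hmox1*, the enzyme that degrades haem taken up through CD163, fell in High against Low (log2 fold change -1.51), where *Cd163* was higher, and against adult (-1.32). The *Hmox1* change against Low turned sign with no scaling and with positive control scaling. The plain test called neither *Hmox1* change. *Lcn2*, which binds iron-carrying siderophores, fell in Low against adult (-1.54) and in High against adult (-2.39), the latter not called in the plain test. *Cp* and *Steap4* were called in none of the 3 comparisons as deposited. In High against Low, *Cp* was called under 2 and *Steap4* under 3 of the 7 scalings.

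**Figure D5:**
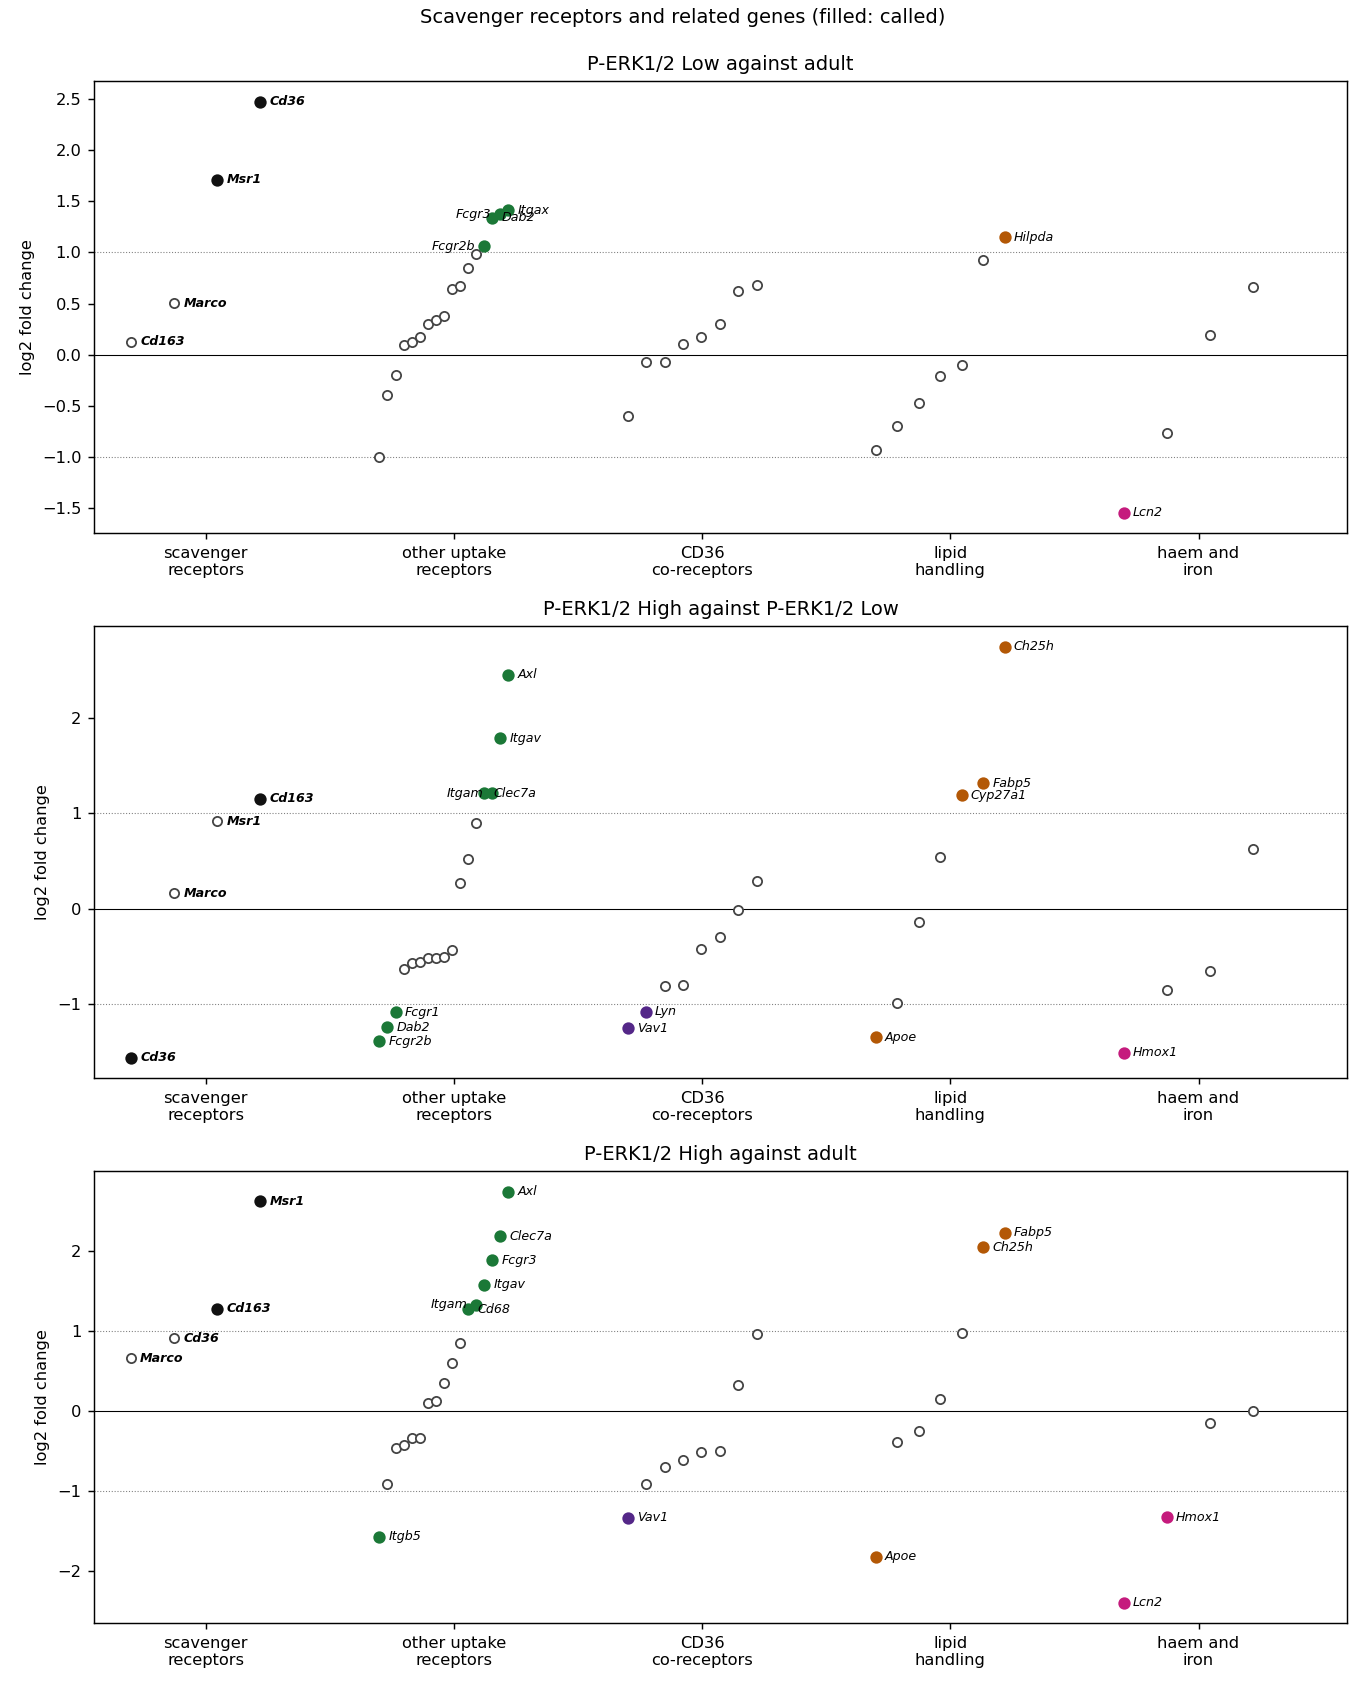
Log2 fold change of the 4 scavenger receptors and of 36 related genes in 4 groups, for Low against adult (top), High against Low (middle) and High against adult (bottom). Filled points were called by limma (p under 0.01, log2 fold change past the dotted lines), and open points were not. *Cd36* is the highest point at the top (2.48) and the lowest in the middle (-1.56).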

How the data were processed

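Microglial RNA of 12 samples was measured by NanoString nCounter, and the authors normalized the counts in nSolver. Each deposited signal value equals a whole count times 1 step per sample (99.827% of gene values whole within 0.1 counts). The deposited table also held 8 negative and 6 positive control probes as counts, and no background had been subtracted. Samples were grouped by title (a tag reads "aged, ERK" on all 12, adults included). Log2(value + 1) was compared with limma 3.58.1 in R 4.3.3 over all 770 genes, with no filter and Benjamini-Hochberg adjustment, and checked on simulated data.

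The genes named are the 4 receptors, called members of 4 related gene lists, markers of 9 cell types, and for receptors above background in most samples the 5 genes of highest correlation. The receptors and lists were chosen with earlier results of these data known. Alternatives were other scalings, pseudocounts, a filter, background subtraction, other fits and leaving out each sample. The background by negative controls, their subtraction and positive control scaling were chosen after seeing the data. The counts of *Cd163* and *Marco* were 88 or less in every sample. A count test was not run.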

Additional observations from a re-analysis of the deposited data

Results flagged for a closer look

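Adult sample 11, which the authors excluded, held more of *Cd36* (1374), *Msr1* (7479.7), *Cd163* (47.3) and *Marco* (17.1) than any of the 3 kept adult samples, and its *Msr1* value was above that of every other sample. No main comparison used it. Its log2 ratio of *Msr1* to *Cd36* was 2.44, its total count 1464449 and the geometric mean of its positive controls 286, against 954 to 1460 in the kept samples.

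In Low, the log2 ratio of *Msr1* to *Cd36* in sample 9 (-0.98) stood apart from the other 3 samples, which were within -1.09 and -1.07, with a gap of 0.837 of the range of the group. Of 10 groups of samples tested this was the only one with so large a gap, and chance gives such a gap in about 1 group in 20.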

How the results depend on the processing

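No paired analysis was possible because the sample numbers of the groups are all different. The count test with TMM and with the authors' scaling was not run, since the deposited columns mix gene values and control counts. In High against Low, 2 of the 4 receptors were called. It was 1, *Cd36*, with a pseudocount of 20 or with median-of-ratios, quantile or total count scaling. *Cd36* was also the only receptor called with a mean of at least 50, a filter that removed *Cd163* and *Marco* before the fit. In the other settings the count was as follows. It was 1, *Cd163*, in the plain test or with negative controls subtracted, and 1, *Marco*, with floor genes subtracted. The 6 stable housekeeping genes gave 2, *Msr1* and *Cd163*, without *Cd36*. With no scaling or positive control scaling it was 3, *Msr1*, *Cd163* and *Marco*. Leaving out 1 sample gave 1 to 3. In Low against adult it was 1 in place of 2 with no scaling, positive control scaling or all 4 adults, and 2 without any 1 sample. In High against adult it was 1 with a pseudocount of 20, median-of-ratios or total count scaling, floor genes subtracted or all 4 adults, 4 with the 6 stable housekeeping genes, no scaling or positive control scaling, 0 in the plain test (where limma called 2, and *Msr1* just missed the p threshold), and 2 to 3 without 1 sample.

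Signs turned in High against Low for *Cd36* with no scaling (0.12) and positive control scaling (0.43), for *Msr1* with total count scaling (-0.11), and for *Marco* with median-of-ratios (-0.076), total count (-0.78), floor genes subtracted (-1.09), negative controls subtracted (-0.28) and without Low sample 9 (-0.225, where leaving out 1 sample gave -0.225 to 0.445). In Low against adult they turned for *Cd163* with total count (-0.25), no scaling (-0.67), positive control scaling (-0.65), negative controls subtracted (-0.86), all 4 adults (-0.068) and without adult sample 10 (-0.089, where leaving out 1 sample gave -0.089 to 0.416), and for *Marco* with no scaling (-0.27) and positive control scaling (-0.25). In High against adult they turned with total count scaling for *Cd36* (-0.50), *Cd163* (-0.10) and *Marco* (-0.64), and for *Marco* with floor genes subtracted (-0.49). The cause was not tested. The log2 ratio of *Msr1* to *Cd36*, which scalings with 1 factor per sample leave nearly fixed, kept its direction under every alternative run, though with all 4 adults it moved from 1.71 to 1.03 in High against adult and from -0.76 to -1.45 in Low against adult. For Low against adult its difference was -0.90 to -0.67 without 1 sample, at an exact permutation p of 0.0667 to 0.1, the smallest those designs allow.

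Of all 770 genes, 291 were called in High against Low, 596 with no scaling, 655 with positive control scaling and 189 in the plain test. In Low against adult the 83 became 240, 236 and 54, and 132 with negative controls subtracted and 34 with all 4 adults. In High against adult the 284 became 173 in the plain test and 49 with all 4 adults. Of the calls, 74.6% were higher in High than in Low as deposited, 59.4% with median-of-ratios scaling, 15.9% with total counts and 100% with positive controls. In Low against adult 74.7% became 28.9% with total counts and 3.33% with no scaling, and in High against adult 79.2% became 9.95% with total counts and 98.6% with the 6 stable housekeeping genes.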
